A study of Mus musculus with 12 samples.

Results

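The comparison described here is that of bone marrow-derived macrophages (BMDMs) lacking *Trsp* with control BMDMs after 4 h of LPS, over all genes of a whole-genome array. It took the 3 arrays labelled as knockout and the 3 labelled as control among the LPS-stimulated cultures, 6 of the 12 arrays of the series. The other 6 arrays hold the untreated cultures of both genotypes, which are used here as a reference. Both genotypes were female mice on the C57BL/6 background with both alleles of *Trsp* flanked by loxP sites. The control mice (Trspfl/fl-LysM-Cre-/-) carried no Cre. The knockout mice (Trspfl/fl-LysM-Cre+/-, called ΔTrspM below) carried 1 copy of Cre under the promoter of the lysozyme M gene, which is active in macrophages and granulocytes, so that cells of other lineages in a marrow culture keep *Trsp*. Marrow cells were grown for 7 days with M-CSF before LPS was added. The sources used here give no dose of LPS for the arrays, and the labels call the arrays biological replicates without saying whether each came from its own mouse, so the p-values reflect how far these samples differ among themselves, a spread that may be technical.

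*Trsp* encodes the transfer RNA that inserts selenocysteine, and without it no selenoprotein can be completed. Selenoproteins include glutathione peroxidases and thioredoxin reductases, which remove peroxides and keep thiols reduced. LPS, a component of the wall of Gram-negative bacteria, is sensed by TLR4 and within hours switches on the genes of inflammatory cytokines and chemokines through NF-κB and, through interferon-β, a set of antiviral genes. The *Trsp* transcript is not analysed here, and so it gives no check of which arrays are knockout.

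Each value below is a log2 signal, that is log2 of the quantile-normalised signal with 16 added, so a probe set with no signal has the value 4 and the fold changes of dim genes are understated. The arrays differed before normalisation. The mean signal was 861, 492 and 759 on the control LPS arrays of replicates 1, 2 and 3, and 492, 199.7 and 675 on the ΔTrspM LPS arrays. Replicate 2 of ΔTrspM stood apart, with 47.7% of its probe sets under a signal of 16 against 17.9% to 28.8% on the other LPS arrays. The 3′ to 5′ signal ratio of the β-actin control, which rises when RNA is broken, was 0.99, 0.88 and 1.17 in control cells and 1.09, 1.19 and 1.24 in ΔTrspM cells. That of *Gapdh* was 0.87, 0.88 and 0.88 against 0.95, 0.68 and 0.86, lowest on the array that stood apart. The part of signal and RNA quality in the differences below was not tested, and results are given without replicate 2 of ΔTrspM where they rest on it. Same-numbered LPS cultures deviated together, so differences within the 3 pairs are also given. The fit with the replicate number as a block takes the numbers as shared by all 4 groups. There not every same-numbered pair reached the required correlation of 0.1 (lowest 0.0668), which limits the counts given with the block.

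Of 18193 genes tested, 2 were lower in ΔTrspM macrophages after LPS at an adjusted p under 0.05 (0.011% of those tested) and 0 were higher (0%). *Heg1*, the gene of a membrane-spanning protein found at cell junctions, had log2 signals of 6.98, 7.59 and 7.25 in control cells and 4.64, 4.92 and 4.45 in ΔTrspM cells. All 3 ΔTrspM values lay close to the value for no signal, and far below the controls. The log2 fold change was −2.61 (standard error, SE, 0.24, adjusted p = 0.0023 from limma), that is 6.09-fold. In control cells LPS raised *Heg1* from 5.24, 5.16 and 4.59 in untreated cells, by 2.28 on the log2 scale (adjusted p = 0.00011). In ΔTrspM cells the corresponding difference was 0.30 (adjusted p = 0.459). *Heg1* has 1 probe set on the array.

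*Tmem132e*, a membrane protein gene, showed the same arrangement on the probe set that was tested. Its log2 signals were 6.47, 6.82 and 6.96 in control cells and 4.65, 4.53 and 4.50 in ΔTrspM cells, a log2 fold change of −2.19 (SE 0.20, adjusted p = 0.0023 from limma). LPS raised it by 1.95 in control cells (adjusted p = 9e-05), from 4.79, 4.59 and 5.02, and the difference in ΔTrspM cells was −0.32. Its second probe set went the other way, with 4.50, 4.87 and 4.23 in control cells and 5.62, 5.59 and 6.34 in ΔTrspM cells, so the array does not settle the direction of the gene as a whole. Both calls held with the replicate number as a block (adjusted p = 0.005 each) and without replicate 2 of ΔTrspM (adjusted p = 0.016 and 0.0178), and both were lost in a fit of the 6 LPS arrays alone (adjusted p = 0.222 each), with median centring (adjusted p = 0.131 and 0.252) and by the methods' t-test (adjusted p = 0.44 each). With all probe sets tested singly, 1 more was called, a dim probe set of *Fech*, the last enzyme of heme synthesis, with a log2 fold change of −1.82. The other 3 probe sets of *Fech* had values of 0.38, 0.33 and −0.01.

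**Figure D1:**
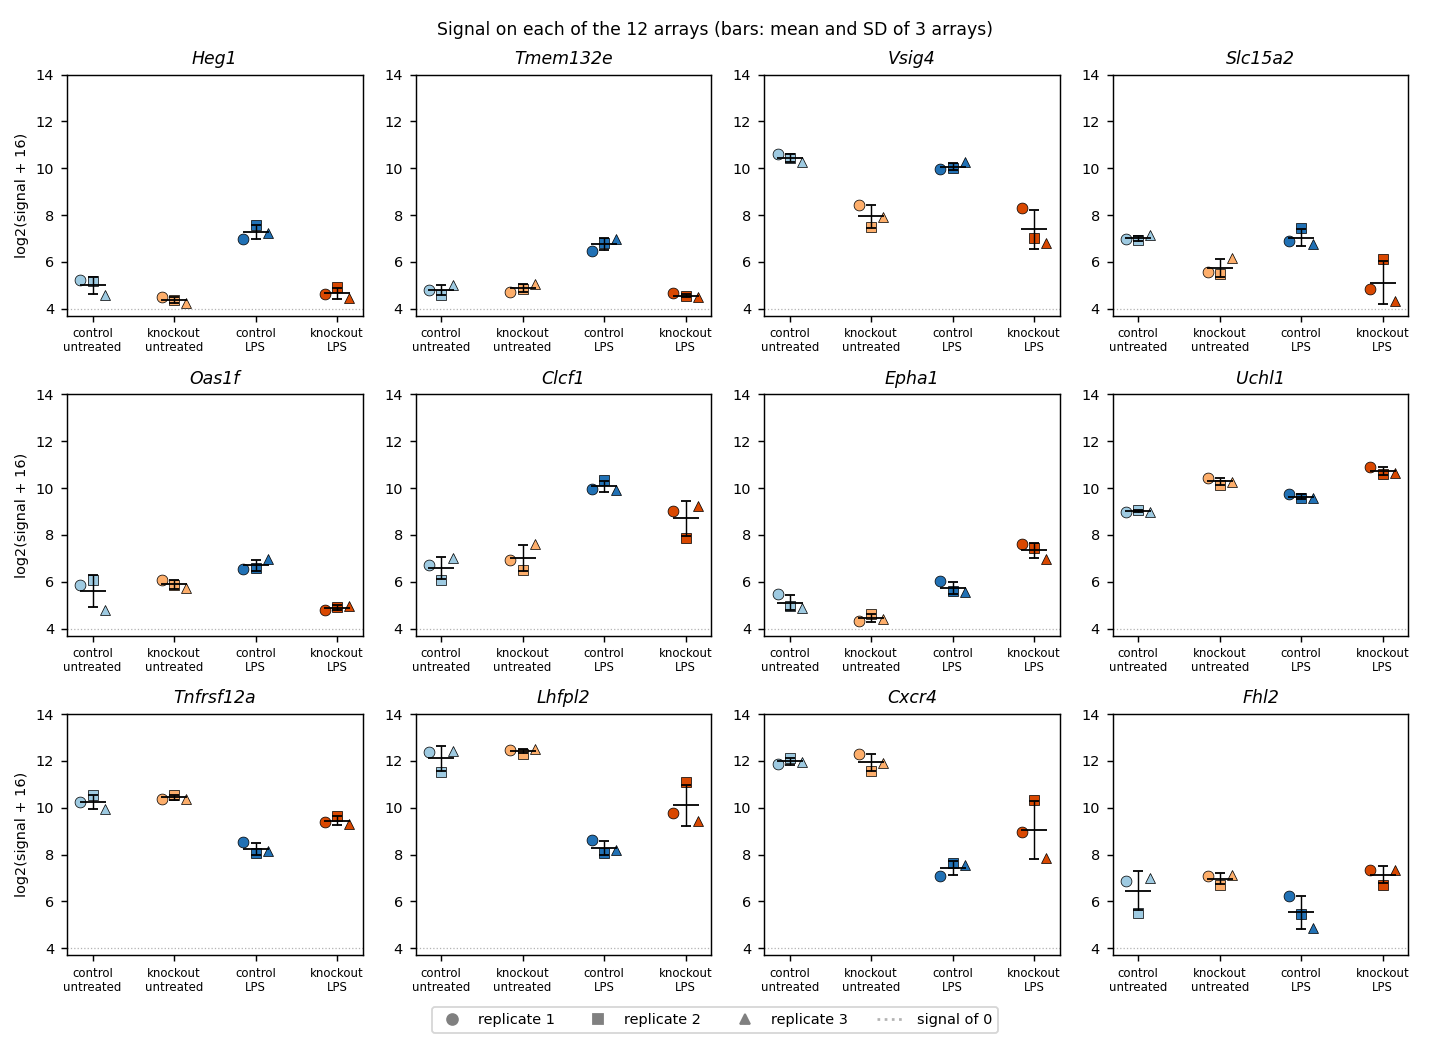
Log2 signal (y axis, log2 of the normalised signal plus 16) of 12 genes on each of the 12 arrays, grouped on the x axis by genotype and stimulus; marker shape gives the replicate number, and bars the mean and SD of 3 arrays. *Heg1* and *Tmem132e* stand above their untreated level in control LPS cells and not in ΔTrspM LPS cells, *Vsig4* and *Uchl1* differ between genotypes with and without LPS, and *Lhfpl2* and *Cxcr4* stand lower after LPS in both genotypes.

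Below that threshold the differences were spread over many genes, most of them dim. At an unadjusted p under 0.05, 652 genes (3.58% of those tested) were higher in ΔTrspM cells and 399 (2.19%) were lower. When the arrays were scaled to a common median, without quantile normalisation, the split turned, to 735 higher and 1052 lower, so the balance of directions over all genes depends on the scaling. The groups did not overlap for 977 genes that were higher (5.37%) and 685 that were lower (3.77%). At an unadjusted p under 0.01 with no overlap between the groups, 157 genes (0.863%) were higher and 94 (0.517%) lower. Of these, 61.1% and 68.1% had a mean log2 signal under 6, against 36.1% of all genes, and 19 had a mean of at least 8, 14 of them higher and 5 lower. Past 3-fold with an unadjusted p under 0.01, 11 genes were higher (0.0605%) and 11 were lower (0.0605%).

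**Figure D2:**
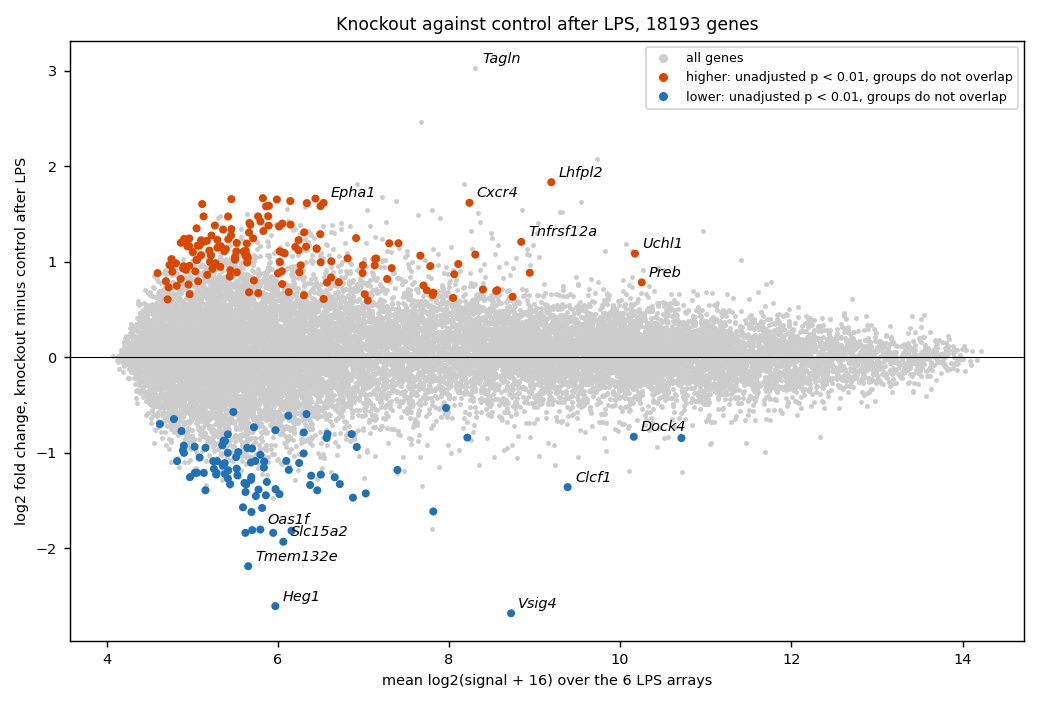
Log2 fold change of each of 18193 genes, ΔTrspM minus control after LPS (y axis), against its mean log2 signal on the 6 LPS arrays (x axis); coloured points are genes at an unadjusted p under 0.01 whose groups do not overlap. Most coloured points lie at a mean log2 signal under 6, and *Vsig4*, *Lhfpl2*, *Uchl1*, *Preb*, *Dock4* and *Clcf1* are among the few at 8 or more.

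Among the bright genes with the largest falls in mean was *Vsig4*, a complement receptor of resident macrophages that also restrains T cells. Its log2 signals were 9.96, 9.99 and 10.25 in control cells and 8.32, 7.01 and 6.82 in ΔTrspM cells. The groups were more than 1 log2 unit apart, and the log2 fold change was −2.68 (SE 0.37), with an adjusted p of 0.086 from limma and 0.058 with the block. It passed the threshold in 5 of the 19 settings tried, among them median centring (adjusted p = 0.0206) and limma's trend and robust options (adjusted p = 0.019). In untreated cells the difference was −2.49. *Clcf1*, a cytokine that signals through the ciliary neurotrophic factor receptor, rose with LPS in control cells (adjusted p = 0.00021 from limma). After LPS it had 9.97, 10.33 and 9.90 in control cells and 9.03, 7.87 and 9.22 in ΔTrspM cells. The lowest value was that of the dim array, and without it the log2 fold change went from −1.36 to −0.94. Its other probe sets gave −0.39 and −0.25. *Dock4*, an activator of the small GTPase Rac, was lower on all 5 of its probe sets, with log2 fold changes of −0.38 to −0.87. *Clcf1* and *Dock4*, as well as *Uchl1*, *Tnfrsf12a*, *Mtss1*, *Preb* and *Fech*, were picked for description after their values were seen.

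The remaining large falls were mostly in dim genes. Of the 15 largest falls at an unadjusted p under 0.01 with no overlap, 10 had a mean log2 signal under 6. *Cacna1d* was brighter, with 7.96, 7.58 and 7.30 in control cells and 6.88, 6.03 and 5.52 in ΔTrspM cells. Its log2 fold change was −1.47, and −0.38 on its second probe set. *Slc15a2*, a transporter that takes up small peptides, including bacterial ones, had 6.88, 7.44 and 6.78 in control cells and 4.84, 6.12 and 4.34 in ΔTrspM cells, a log2 fold change of −1.93 (adjusted p = 0.276). The groups did not overlap on this probe set, while its other probe sets gave −1.15 and 0.14. Without replicate 2 of ΔTrspM its adjusted p was 0.033. *Oas1f* of the oligoadenylate synthetase family is taken up below with its relatives. *Cd4*, a coreceptor of T cells that mouse macrophages express little, and *St6galnac2*, a sialyltransferase, had −1.62 each. None of these passed the adjusted threshold.

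The largest rises in mean among genes at an unadjusted p under 0.01 with no overlap included 2 bright genes that LPS represses. *Lhfpl2*, which encodes a membrane protein with 4 spans, had 8.61, 8.05 and 8.18 in control cells and 9.79, 11.11 and 9.44 in ΔTrspM cells. *Cxcr4*, the receptor of the chemokine CXCL12, had 7.09, 7.65 and 7.55 in control cells and 8.95, 10.32 and 7.87 in ΔTrspM cells. The change with LPS was −3.83 and −4.56 on the log2 scale in control cells (adjusted p = 0.00011 and 0.00012 from limma) and −2.32 and −2.89 in ΔTrspM cells. In both, the highest value after LPS was that of the dim array, without which the differences between genotypes were 1.33 and 0.98 in place of 1.83 and 1.62. The other probe sets of *Lhfpl2* gave 1.10, 1.15 and, on a dim one, −0.51. *Mtss1*, an actin- and membrane-binding protein, is another gene that LPS lowers, and had 8.13, 6.90 and 8.28 in control cells and 8.65, 9.21 and 8.67 in ΔTrspM cells. So is *Tnfrsf12a*, the receptor of the cytokine TWEAK, whose groups lay further apart than their spread. It had 8.53, 8.05 and 8.14 in control cells and 9.38, 9.66 and 9.31 in ΔTrspM cells, a log2 fold change of 1.21 (SE 0.21, adjusted p = 0.156), and its second probe set gave 1.34.

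*Uchl1*, a deubiquitinating enzyme known from neurons, differed by more than the spread within each group. It stood at 9.76, 9.57 and 9.56 in control cells and at 10.91, 10.61 and 10.62 in ΔTrspM cells, a log2 fold change of 1.08 (SE 0.17, adjusted p = 0.112). With 64 added before log2 in place of 16 it passed (adjusted p = 0.0271), the 1 setting of the 19 tried in which it did. *Preb*, a guanine nucleotide exchange factor of vesicle export from the endoplasmic reticulum, had 9.66, 9.76 and 10.16 in control cells and 10.72, 10.57 and 10.64 in ΔTrspM cells, while its other probe sets gave 0.40 and −0.05. *Epha1*, an ephrin receptor tyrosine kinase, was dimmer, with 6.02, 5.61 and 5.56 in control cells and 7.60, 7.45 and 6.98 in ΔTrspM cells, a log2 fold change of 1.61 (adjusted p = 0.088). Its other probe sets, both dim, gave 0.13 and 0.42. The other largest rises at an unadjusted p under 0.01 with no overlap, among them *Gip*, *Cyp2c38*, *Klf1*, *Arntl2* and *Tat*, were dim. They had log2 signals of at most 6.35 on every control LPS array. *Tagln* and *Ccn2*, which rose more in mean without overlap, did not reach that p and are taken up below.

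No difference between genotypes in the core response to LPS passed the test. The spread in that test comes from all 4 groups, so the untreated arrays enter it. Among these, control replicate 2 stood at 9.38 for the chemokine list, against 7.96 to 8.47 on the other untreated arrays. For inflammatory cytokines it stood at 7.82, against 7.02 to 7.35. Such spread widens the standard errors of genes that LPS induces, so their p-values can miss small differences. *Tnf* had log2 signals of 13.68, 13.83 and 13.82 in control cells and 13.81, 14.06 and 13.79 in ΔTrspM cells, and *Il1b* had 13.56, 13.72 and 13.88 against 13.86, 14.08 and 13.89. The groups overlapped for both, as they did for the neutrophil chemokines *Cxcl1* and *Cxcl2* and for *Ptgs2*, the inducible prostaglandin synthase. These signals lie near the top of the scale of the arrays, where differences are compressed. Of 19 inflammatory cytokine genes, 6 were higher in mean and 13 lower, with 0 at an unadjusted p under 0.05 in either direction, also with the block. The median log2 fold change was −0.08, against 0.04 over all genes. Over all genes, 55.3% were higher and 44.7% lower in mean.

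The 29 effector and feedback genes of the LPS response leaned lower. Of these, 5 were higher in mean and 24 lower, 12 of them in all 3 pairs (12.5% of all genes were lower in all 3 pairs), with a median of −0.13 that was −0.01 without control replicate 2. No member reached an unadjusted p of 0.05, and with the block 1 was lower, the phosphatase *Dusp2* at −0.65, where 3.26% of all genes were lower by that rule. Without the second replicate of either genotype 9 were higher and 20 lower. *Nos2*, the inducible nitric oxide synthase, had 8.21, 9.57 and 9.69 in control cells and 5.51, 9.42 and 9.67 in ΔTrspM cells. A single ΔTrspM array, replicate 1, was low, and the other ΔTrspM arrays lay within the control values; without that array the log2 fold change was 0.39 in place of −0.96. *Tlr4*, the LPS receptor, had 9.37, 9.95 and 9.65 in control cells and 8.27, 9.36 and 9.36 in ΔTrspM cells. Its groups did not overlap, and all 4 of its probe sets were lower in ΔTrspM cells, by −0.49 to −1.23 in log2 fold change, with an unadjusted p of 0.041 and an adjusted p of 0.847 for the probe set tested. Without replicate 1 of ΔTrspM its log2 fold change was −0.30 in place of −0.67.

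Chemokines were spread to both sides, 14 of 22 higher in mean and 8 lower. Among them *Cxcl9*, an interferon-γ target that attracts T cells, had 12.46, 11.96 and 12.15 in control cells and 11.65, 10.75 and 11.18 in ΔTrspM cells. The groups did not overlap, with a log2 fold change of −0.99 (SE 0.77, from the spread in all 4 groups). *Ccl24*, which attracts eosinophils, was the 1 member of 22 at an unadjusted p under 0.05 (2.19% of all genes were lower), at −0.97 from a dim signal. Of 13 chemokine receptors 8 were higher in mean and 5 lower, with 3 higher and 1 lower at an unadjusted p under 0.05, against 3.58% and 2.19% of all genes. The higher ones were *Cxcr4*, *Ccr7* (0.91), which directs cells to lymph nodes, and *Cxcr6* (0.59). The lower one was *Ccr3*, the eotaxin receptor of eosinophils, at −0.79, or −0.37 without control replicate 1.

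Interferon-stimulated genes were lower in mean in 31 of 37 cases (44.7% of all genes) and in all 3 pairs in 18 of 37 (12.5% of all genes), with small differences. The groups did not overlap for 8 that were lower (3.77% of all genes) and 1 that was higher (5.37%). The median log2 fold change was −0.17. Of the 37, 1 was lower at an unadjusted p under 0.05, where 2.19% of all genes were lower. This was *Gbp8*, an interferon-inducible GTPase, with 7.25, 6.72 and 6.45 in control cells and 5.65, 5.88 and 5.56 in ΔTrspM cells. The mean level over the list was 12.24, 12.21 and 12.23 on the control LPS arrays and 11.94, 12.06 and 12.07 on the ΔTrspM LPS arrays. Each ΔTrspM array thus lay below each control array. Not every bright member followed: *Ifit1* had 13.46, 13.56 and 13.61 in control cells and 13.62, 13.67 and 13.64 in ΔTrspM cells. *Ifit2*, about as bright, had a log2 fold change of −0.08. In untreated cells the median difference was −0.96, where the list stood at 10.77 on the array of control replicate 2 against 7.89 to 8.28 on the other 5 untreated arrays. The median of the list after LPS was below 0 under all 19 settings tried.

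The oligoadenylate synthetases, sensors of double-stranded RNA that activate RNase L, did not move as a family. *Oas1f* had 6.54, 6.58 and 6.98 in control cells and 4.79, 4.93 and 4.96 in ΔTrspM cells, a log2 fold change of −1.81 (SE 0.30, adjusted p = 0.141). *Oas1a* had 12.84, 13.21 and 12.86 in control cells and 13.08, 13.11 and 13.04 in ΔTrspM cells, and *Oas3* had a difference of −0.06. Of 10 members 3 were higher and 7 lower in mean. The core of the interferon-stimulated response element (GAAA, then NN, then GAAA, searched on both strands, overlaps allowed) was present in the promoter window of 4 of 8 members with a sequence, and in 16 of 31 interferon-stimulated genes, against 3.99% of all genes with a window. A window holds 250 bases before and 50 after a RefSeq start in GRCm38.p6. That of *Oas1f* held no match, while that of *Oas1a* held overlapping matches, shown here with that of *Oas3*, members whose differences were near 0, with the core in capitals and the sequence on the strand of the gene:
*Oas1a*, chr5:120907520-120907549, minus strand: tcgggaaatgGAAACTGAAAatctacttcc
*Oas1a*, chr5:120907526-120907555, minus strand: cccttctcggGAAATGGAAActgaaaatct
*Oas3*, chr5:120777715-120777744, minus strand: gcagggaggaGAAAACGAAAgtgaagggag

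Most collagen genes were higher in ΔTrspM cells in every pair of cultures. Collagens form the fibres and sheets of the matrix and are products of fibroblasts more than of macrophages. Of 18 collagen genes 16 were higher in mean and 15 in all 3 pairs (18.5% of all genes were higher in all 3 pairs), with a median log2 fold change of 0.87. At an unadjusted p under 0.05, 3 were higher, and 12 with the block, where 5.76% of all genes were higher by that rule. None passed the adjusted threshold, with or without the block. *Col1a1*, the main chain of type I collagen, had 8.56, 7.66 and 8.81 in control cells and 9.64, 9.23 and 10.38 in ΔTrspM cells. *Col5a2* had 8.38, 6.70 and 9.16 against 9.85, 8.23 and 10.80, so that the groups overlapped while the pairs differed by 1.48, 1.52 and 1.64. *Col16a1*, with 7.02, 6.97 and 6.45 against 8.10, 7.54 and 8.38, did not overlap. Without replicate 2 of ΔTrspM the median was 1.07, in untreated cells it was 0.36, and it stayed above 0 under all 19 settings.

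Matrix glycoproteins and proteoglycans leaned the same way, with 25 of 31 higher in mean. At an unadjusted p under 0.05, 12 were higher with the block (5.76% of all genes), against 2 without it (3.58%). With no scaling of the arrays the median of all genes moved to −0.60 and that of this list to −0.18 from 0.45. *Ccn2*, a matricellular protein induced by TGF-β, had 9.36, 7.64 and 9.07 in control cells and 11.61, 9.45 and 11.22 in ΔTrspM cells, which is 2.26, 1.80 and 2.15 higher within the 3 pairs. *Ccn1*, its relative, had 7.32, 6.76 and 6.99 against 9.11, 7.75 and 8.85. *Sparc*, a collagen-binding protein, had a log2 fold change of 1.63, and *Bgn*, a small proteoglycan, was higher on all 3 of its probe sets, at 1.52, 1.63 and 2.00. *Fn1*, fibronectin, which links cells to collagen, overlapped between the groups, with 12.57, 10.20 and 12.31 in control cells and 12.10, 10.21 and 12.46 in ΔTrspM cells. Replicate 2 was its lowest array in both genotypes. *Serpinh1*, the chaperone of collagen folding, had 8.13, 6.67 and 7.96 against 9.15, 8.19 and 9.95. Of the proteases of the matrix, 11 were higher and 10 lower in mean. *Mmp23* (1.24), *Adamts1* (1.13) and *Mmp11* (0.71) were at an unadjusted p under 0.05, where 3.58% of all genes were higher. A second probe set of *Mmp23* gave 0.18.

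**Figure D3:**
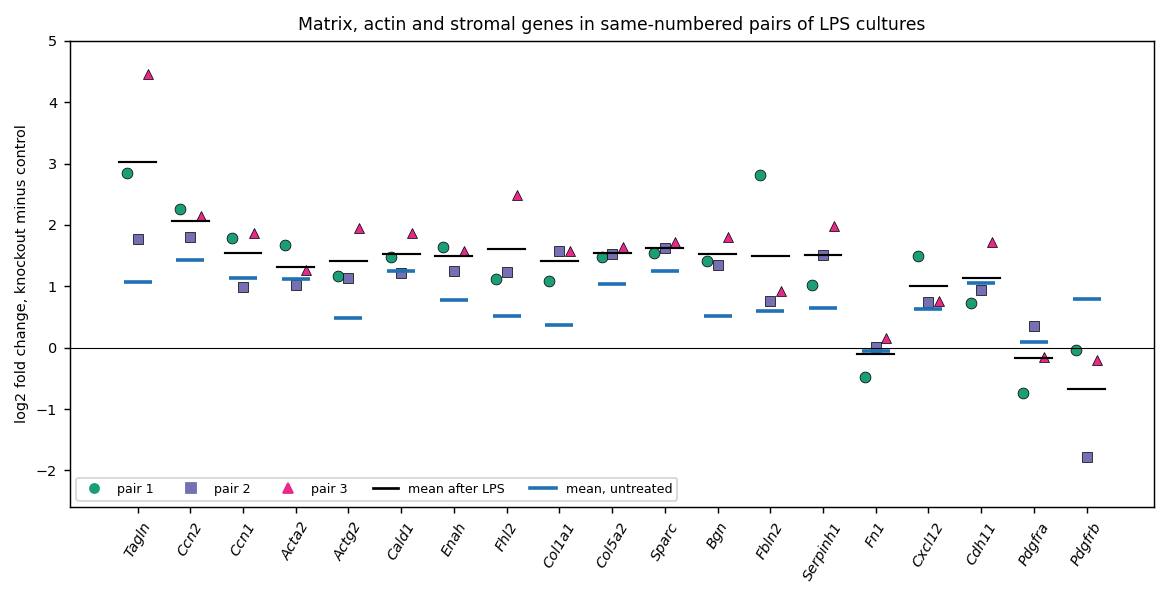
Log2 fold change, ΔTrspM minus control (y axis), of 19 matrix, actin and stromal genes (x axis) in each of the 3 same-numbered pairs of LPS cultures (markers), with the mean after LPS (black line) and in untreated cells (blue line). All 3 pairs lie above 0 for the genes from *Tagln* to *Serpinh1* and for *Cxcl12* and *Cdh11*, and they straddle 0 for *Fn1* and *Pdgfra*.

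Contractile genes of the actin cytoskeleton, the products of smooth muscle cells and myofibroblasts, gave the largest single difference. *Tagln*, an actin-binding protein of smooth muscle, had 8.07, 6.79 and 5.51 in control cells and 10.92, 8.57 and 9.97 in ΔTrspM cells. The groups did not overlap, but the pairs differed by 2.85, 1.77 and 4.46, and the log2 fold change of 3.03 had a standard error of 1.00 (adjusted p = 0.717, with the block 0.28). *Acta2*, smooth muscle actin, had 10.63, 9.56 and 10.72 against 12.31, 10.59 and 11.99. *Cald1*, which regulates actin-myosin contraction, differed by 1.48, 1.22 and 1.87 in the pairs, and *Enah*, an actin elongation factor, by 1.63, 1.25 and 1.57. Without control replicate 2 the log2 fold change was 0.72 for *Cald1* and 0.90 for *Enah*, in place of 1.52 and 1.49. Of 33 members 26 were higher in mean, 16 of them in all 3 pairs (18.5% of all genes). The median of the list, 0.35, was −0.25 with no scaling, where that of all genes was −0.60. It was 0.18 without replicate 1 of ΔTrspM. At an unadjusted p under 0.05 with the block, 11 members were higher (5.76% of all genes) and 2 lower (3.26%). The 2 that were lower, *Myh11* (−0.94) and *Lmod1* (−0.58), are themselves smooth muscle genes. Both were dim, at 4.31 to 5.89, and a second probe set of *Myh11* gave 0.77, so the array does not settle the direction of that gene.

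The CArG box, the site of serum response factor, was searched in the same promoter windows because it is shared by many contractile genes. It was present in 6 of 29 actin genes with a window (20.7%), against 1.81% of all genes with a window. No window was at hand for *Tagln* and *Actg2*. All 6 genes were higher in mean on the probe sets tested, as were 26 of the 33 measured members. They ran from 1.61 for *Fhl2*, a LIM domain cofactor, and 1.46 for *Myl9*, a myosin light chain, through *Fermt2* (0.95), *Cnn2* (0.65) and *Fhl1* (0.26) to *Vcl* (0.07). Other probe sets gave −0.17 for *Fhl1*, and 0.92 and −0.24 for *Fermt2*. None of 14 collagen genes held a CArG box. *Fhl2*, among the 15 largest rises at an unadjusted p under 0.01 with no overlap, had 6.25, 5.49 and 4.87 in control cells and 7.36, 6.72 and 7.35 in ΔTrspM cells. The boxes are shown in capitals on the strand of the gene, from the largest difference to the smallest, since genes with larger and smaller differences share them:
*Fhl2*, chr1:43163973-43164002, minus strand: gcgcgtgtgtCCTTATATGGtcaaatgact
*Fhl2*, upstream start, chr1:43196838-43196867, minus strand: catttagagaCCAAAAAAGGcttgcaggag
*Myl9*, chr2:156775293-156775322, plus strand: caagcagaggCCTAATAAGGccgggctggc
*Fermt2*, chr14:45530250-45530279, minus strand: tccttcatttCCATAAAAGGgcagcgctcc
*Cnn2*, chr10:79988534-79988563, plus strand: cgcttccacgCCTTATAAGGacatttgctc
*Fhl1*, chrX:56779571-56779600, plus strand: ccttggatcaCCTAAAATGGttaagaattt
*Vcl*, chr14:20929161-20929190, plus strand: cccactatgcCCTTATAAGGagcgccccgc

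Markers of other cells were measured beside these genes. Of 20 markers of marrow stroma and fibroblasts 17 were higher in mean (55.3% of all genes). At an unadjusted p under 0.05, 6 were higher with the block (5.76% of all genes) against 0 without it (3.58%). Their mean level was 7.22, 6.44 and 7.28 on the control LPS arrays and 7.47, 7.10 and 7.79 on the ΔTrspM LPS arrays. Each pair moved the same way, and replicate 2 was the lowest array of each genotype, as it was for the collagens. The 6 included *Cxcl12* (1.00), *Cdh11* (1.13), *Prrx1* (1.01) and 3 matrix genes also counted above. Other probe sets gave 1.31 and 0.31 for *Cxcl12*, 0.22 for *Cdh11* and −0.07 to 0.39 for *Prrx1*. Without control replicate 2 the median of the list went from 0.38 to 0.16, *Cdh11* to 0.28 and *Prrx1* to 0.45. The receptors that mark these cells were not higher in mean on the probe sets tested. *Pdgfra* had 6.65, 6.54 and 6.51 in control cells and 5.92, 6.90 and 6.36 in ΔTrspM cells, and *Pdgfrb*, which LPS raised in control cells, had 11.02, 11.95 and 11.06 against 10.98, 10.17 and 10.86. Other probe sets gave 0.22 and −0.18 for *Pdgfra* and −0.52 for *Pdgfrb*. The *Pdgfrb* difference of −0.67 was −0.37 without control replicate 2 and −0.42 without replicate 2 of ΔTrspM. In RNA from whole cultures, more cells of a type and more RNA per cell cannot be told apart. The part of stromal cells in the matrix and actin differences was not tested.

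TGF-β is a known inducer of matrix and contractile genes. *Tgfb1*, by far the brightest of the 3 ligands, had 12.27, 12.59 and 12.19 in control cells and 12.22, 12.61 and 12.15 in ΔTrspM cells. The dimmer *Tgfb2*, with 6.31, 6.15 and 5.95 against 7.30, 6.38 and 7.26, and *Tgfb3*, with 5.16, 4.35 and 4.24 against 6.43, 5.65 and 6.12, did not overlap. They were at an unadjusted p of 0.027 and 0.034. Over the 27 genes of the pathway 16 were higher and 11 lower, with a median of 0.05 that turned to −0.27 with median centring.

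Of 19 core markers of macrophages 8 were higher and 11 lower in mean. The groups did not overlap for 2 that were higher (5.37% of all genes) and 2 that were lower (3.77%). At an unadjusted p under 0.05, 1 was higher (3.58% of all genes) and 2 were lower (2.19%). *Adgre1* (F4/80), *Csf1r* and *Cybb* all had log2 signals of 13.26 or more on every LPS array, and their groups overlapped. The mean level of the list was 11.66, 11.71 and 11.77 in control cells and 11.48, 11.66 and 11.66 in ΔTrspM cells. *Lyz2*, the gene whose promoter drives Cre, had 13.13, 13.47 and 13.39 against 13.66, 13.99 and 13.68, without overlap and with a log2 fold change of 0.44, and was the marker at an unadjusted p under 0.05 that was higher. The 2 that were lower were *Cd163*, the hemoglobin scavenger receptor, with 6.21, 6.38 and 6.28 against 5.65, 5.86 and 5.19, and *Tlr4*. The mean level of neutrophil markers, which Cre would also reach, was 9.14, 8.86 and 9.65 in control cells and 9.58, 8.65 and 9.20 in ΔTrspM cells. Those of endothelial, erythroid, mast cell, lymphocyte and dendritic cell markers also overlapped between genotypes.

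**Figure D4:**
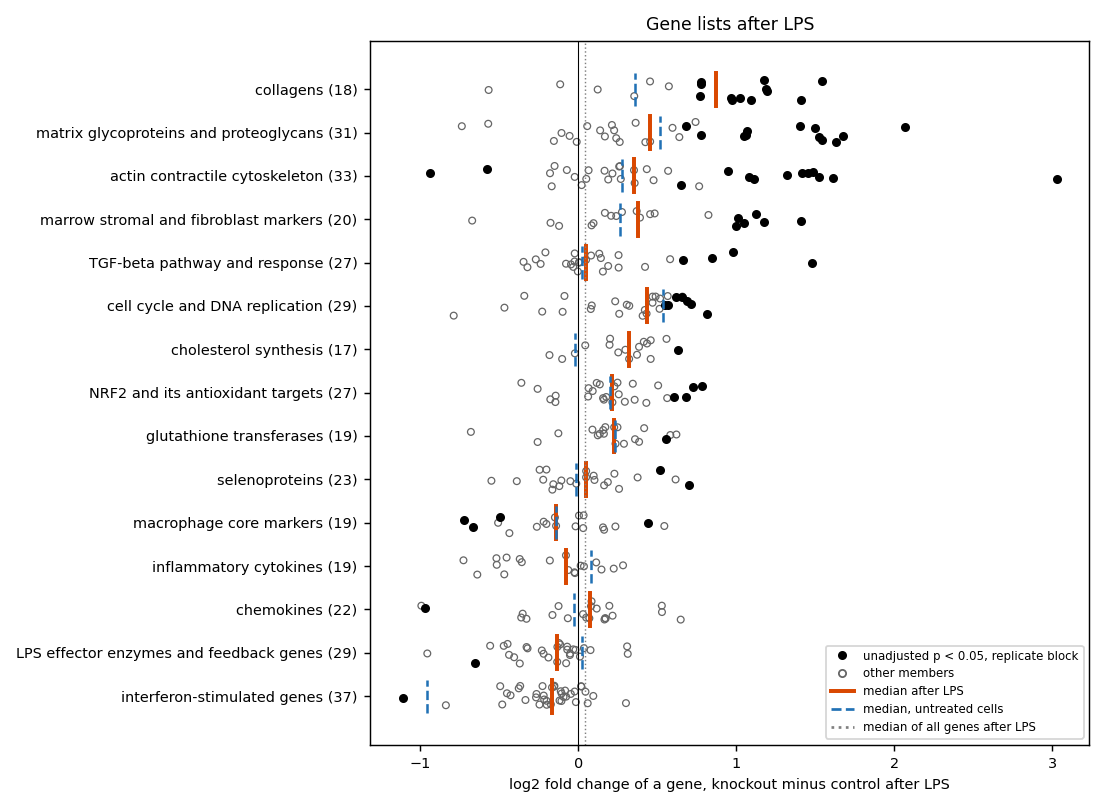
Log2 fold change of each member of 15 gene lists, ΔTrspM minus control after LPS (x axis), with the number of members in brackets; filled points are at an unadjusted p under 0.05 with the replicate block, and vertical strokes give the median after LPS (orange) and in untreated cells (blue). The median of the collagens, 0.87, is the highest of the lists drawn and that of the interferon-stimulated genes, −0.17, the lowest.

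The mRNAs of the selenoproteins themselves showed little. Of 23 measured, 12 were higher and 11 lower in mean, with a median of 0.05. At an unadjusted p under 0.05 there were 0 either way, and 2 higher (5.76% of all genes) and 0 lower (3.26%) with the block. These were *Dio2*, which activates thyroid hormone, and *Sephs2*, which makes the selenium donor (0.52, and 0.28 without replicate 2 of ΔTrspM). *Dio2* had 7.27, 6.31 and 7.10 in control cells and 7.45, 7.46 and 7.87 in ΔTrspM cells, without overlap, and its log2 fold change of 0.70 was the highest of the list. *Gpx1*, the main cytosolic glutathione peroxidase, had 12.96, 12.08 and 13.04 in control cells and 12.66, 12.10 and 12.65 in ΔTrspM cells. *Txnrd1*, cytosolic thioredoxin reductase, had a difference of −0.01, and *Gpx4*, which reduces lipid peroxides, of 0.19. *Selenow* had 12.17, 11.82 and 12.21 against 12.13, 11.07 and 11.35, and *Selenok* had 12.51, 12.84 and 12.22 against 12.15, 12.21 and 12.04, the other member whose groups did not overlap. Of the 23, 1 was thus higher without overlap and 1 lower, against 5.37% and 3.77% of all genes. On the second probe set of *Selenok* the groups overlapped, with a difference of −0.03. Of the 11 measured genes of the machinery that makes and inserts selenocysteine, 1 was lower at an unadjusted p under 0.05 with the block (3.26% of all genes). This was *Sephs1* (−0.44), while its other probe sets gave −0.32, 0.02 and 0.38.

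Antioxidant genes driven by NRF2 were slightly higher in mean. Of 27, 22 were higher, 17 of them in all 3 pairs (18.5% of all genes), with a median of 0.22 that was 0.02 with median centring. At an unadjusted p under 0.05 there were 0 either way, and 4 higher with the block (5.76% of all genes). These were *Gclm* and *Srxn1*, of glutathione synthesis and peroxiredoxin repair, *Hmox1*, heme oxygenase, and *Osgin1*. *Hmox1* had 12.07, 12.58 and 12.55 in control cells and 12.47, 13.55 and 13.01 in ΔTrspM cells, with all pairs higher and the groups overlapping. *Gclm* had 10.88, 11.80 and 11.42 against 11.96, 13.05 and 11.44, so that the third pair differed by 0.02. Without replicate 2 of ΔTrspM, the highest of the LPS arrays for all 4, the log2 fold change went from 0.79 to 0.33 for *Gclm*, from 0.68 to 0.32 for *Srxn1*, from 0.61 to 0.34 for *Hmox1* and from 0.72 to 0.08 for *Osgin1*. *Nfe2l2*, the gene of NRF2, had a difference of −0.26. The core of the antioxidant response element (TGACNNNGC, both strands) was in the window of 10 of 25 of these genes, against 14% of all genes with a window.

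Cell cycle genes were higher in mean in 23 of 29 cases, with a median of 0.43. At an unadjusted p under 0.05 there were 0, and 7 higher with the block (5.76% of all genes). Their mean level was 9.63, 8.66 and 10.30 on the control LPS arrays and 10.18, 8.97 and 10.35 on the ΔTrspM LPS arrays, so the replicates differed more than the genotypes, and the third pair by little. The median turned to −0.14 without control replicate 2 and to −0.43 with no scaling. It was 0.93 without replicate 2 of ΔTrspM, 0.83 without control replicate 3, and 0.21 and 0.09 without replicates 1 and 3 of ΔTrspM. Of 17 genes of cholesterol synthesis 14 were higher, but the median of 0.32 turned to −0.03 with median centring and was 0.03 without the second replicate of either genotype and 0.02 without control replicate 2 alone. For the 20 genes that the study lists as upregulated on these arrays, all were higher in mean after LPS, with a median of 1.33 (0.73 without control replicate 2). At an unadjusted p under 0.05 there were 18 with the block (5.76% of all genes were higher) against 2 without it (3.58%). For the 7 listed as downregulated all were lower, with a median of −0.64 (−0.42 and −0.41 without replicates 1 and 3 of ΔTrspM). These lists were chosen on the same arrays and are no independent evidence of direction.

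Whether a knockout effect differed with LPS was tested as an interaction. No gene passed an adjusted p of 0.05 (0% of those tested), with or without the block, and the smallest adjusted p was 0.0766. At an unadjusted p under 0.05 the effect was more positive after LPS for 308 genes (1.69%) and more negative for 247 (1.36%). That smallest value belonged to *Tmem132e*, whose knockout effect was 0.09 in untreated cells and −2.19 after LPS, and to *Gm26844*, an unnamed locus, with 4.29, 4.43 and 4.42 in control LPS cells and 5.90, 5.21 and 6.07 in ΔTrspM LPS cells. *Gm26844* had a knockout effect of −1.14 in untreated cells and 1.35 after LPS, and it passed the interaction test with array weights and without replicate 2 of ΔTrspM. *Fibcd1*, a receptor of acetylated sugars such as chitin, went from 0.90 to −1.26, *Muc16*, a membrane mucin, from 0.41 to −1.29, and *Epha1* from −0.64 to 1.61. All had an adjusted interaction p of 0.169. For *Heg1*, with effects of −0.63 and −2.61, the adjusted interaction p was 0.296. *Vsig4*, *Uchl1*, *Slc15a2* and *Gbp8*, like *Heg1*, had knockout effects of the same sign with and without LPS. *Vcam1*, an adhesion molecule that LPS raises, had the reverse order, −2.76 in untreated cells and −0.56 after LPS, where all 3 of its probe sets were lower. In untreated cells control replicate 2 stood at 10.77 for the interferon-stimulated genes, against 7.89 to 8.28 on the other untreated arrays. The part of that array in the untreated effects and interactions of induced genes such as *Vcam1* and *Gbp8* was not tested.

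**Figure D5:**
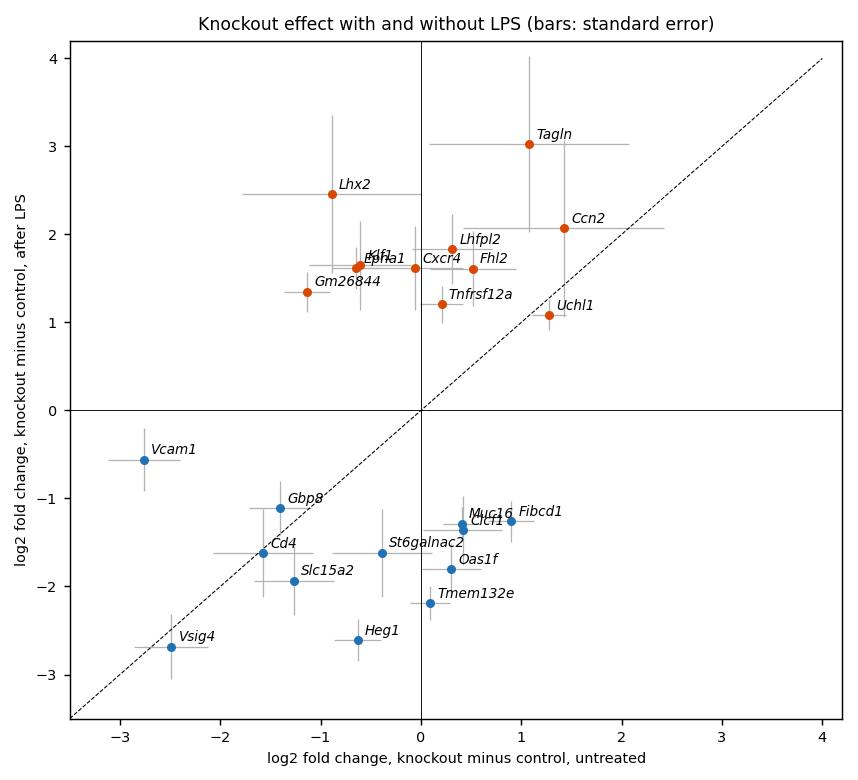
Log2 fold change, ΔTrspM minus control, after LPS (y axis) against that in untreated cells (x axis) for 23 named genes, with standard errors as bars and the line of equal effects dashed. *Vsig4* and *Uchl1* lie near the line, *Heg1*, *Tmem132e*, *Epha1* and *Gm26844* away from it, and *Vcam1* on its other side.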

How the data were processed

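BMDMs of 2 genotypes, with and without LPS, were profiled on 12 arrays (Affymetrix, whole mouse genome), 3 for each group as labelled. The values deposited by the authors are intensities on a linear scale, 1 for each probe set and array (45101 probe sets), after normalization in Affymetrix Expression Console. The sources used here name no method for summarizing probes. Of the per-sample columns 0 were left unused.

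Control probe sets (64) were removed. The rest were quantile-normalized, 16 was added and log2 taken. Of 45037 probe sets, 34945 carried 1 gene symbol in the platform annotation, 932 several and 9160 none. Those with 1 symbol were kept, and the probe set with the highest mean signal stood for its gene, which gave 18193 genes. Differences were tested with limma 3.58.1 (R 4.3.3), 4 groups in one fit with 8 residual degrees of freedom, with Benjamini-Hochberg adjustment over all genes and a threshold of 0.05. With 3 arrays against 3 the smallest two-sided exact permutation p is 0.1, and the number of arrays limits the precision. The test was tried on simulated data.

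Same-numbered LPS arrays correlated at 0.211 to 0.393 after removal of group means, and arrays with different numbers at 0.0727 at most. The numbers were taken to pair the LPS cultures on this ground, since the labels do not say what they stand for. Over all 4 groups 1 or more of the 18 same-numbered pairs fell under the required 0.1 (lowest 0.0668). The fit with the number as a block spanned all 4 groups and had 6 residual degrees of freedom. Its results thus rest on a pairing that fell short of this requirement.

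The 39 gene lists (738 genes, 680 measured) and the genes described were chosen with earlier results of these data known. Genes were named by a rule: those called, the 15 largest rises and the 15 largest falls among genes at an unadjusted p under 0.01 with no overlap, the first 2 and the 3 smallest p of each list, the genes the study names, and the 5 smallest p of the interaction. Genes outside it are named as such or as members of a counted list. Promoter windows (300 bases, RefSeq, GRCm38.p6) were found for 185 of 235 named genes. Some genes of the lists are not analysed here. Alternatives were another scaling, constant, probe set rule, filter, variance model, array set and test, and leaving out arrays.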

Additional observations from a re-analysis of the deposited data

How the results depend on the processing

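The 2 genes lower at an adjusted p under 0.05 became 0 when only the LPS arrays were fitted, with or without the replicate block, by the methods' t-test, with the block and without the second replicate of either genotype, and under a filter that keeps mean log2 signals of 6 or more, where neither gene is tested. They became 1 with median centring (*Vsig4* alone) and when a gene's probe sets were averaged (*Heg1* alone), and 2 to 3 when 1 LPS array was left out. With the replicate block in the fit of 4 groups the same 2 genes were called, and with no scaling *Heg1* and *Vsig4* were. The 0 genes higher became 1 with 64 added (*Uchl1*) and 0 to 2 when 1 array was left out, among them *Lhx2* without control replicate 1 (log2 fold change 3.82, adjusted p = 0.0236 from limma). Counts past 3-fold (unadjusted p under 0.01), which gave 11 genes higher and 11 lower, moved with the constant added and with the scaling. The higher ones became 17 with the replicate block, 1 with median centring, 0 with no scaling, 91 with 1 added, 1 with 64 added, 7 with the mean of the probe sets, 5 with the filter, 4 by the t-test, 38 with the block and no second replicate, and 15 to 28 when 1 array was left out. The lower ones became 7 with median centring, 91 with no scaling, 59 with 1 added, 1 with 64 added, 6 with the mean of the probe sets, 19 over all probe sets, 4 with the filter, 5 by the t-test, 19 with the block and no second replicate, and 14 to 25 when 1 array was left out. The 0 interaction calls became 3 with 1 added (*Gm26844*, *Tmem132e* and *Fibcd1*), 1 with array weights, and 0 to 1 when 1 array was left out (*Gm26844* without replicate 2 of ΔTrspM). Leaving out 1 array where a group then holds 2 uses the spread pooled over the groups. The cause of these shifts was not tested.

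Among 94 genes described, the directions below turned under some alternatives. With no scaling the median of all genes was −0.60. There the log2 fold change was −0.25 for *Cnn2*, −0.0814 for *Cxcl1*, −0.0093 for *Cxcl2*, −0.025 for *Cxcr6*, −0.32 for *Cybb*, −0.117 for *Dio2*, −0.56 for *Fech*, −0.33 for *Fhl1*, −0.65 for *Gpx4*, −0.27 for *Ifit1*, −0.56 for *Oas1a*, −0.10 for *Osgin1*, −0.13 for *Preb*, −0.419 for *Sephs2*, −0.11 for *Srxn1*, −0.0854 for *Tnf* and −0.93 for *Vcl*. With median centring it was −0.0482 for *Fech*, −0.14 for *Gpx4*, −0.0506 for *Oas1a*, 0.23 for *Ptgs2* and −0.42 for *Vcl*. With the mean of the probe sets it was 0.0119 for *Csf1r*, −0.18 for *Cybb* and −0.28 for *Fech*. For *Fhl1* it was −0.0404 with array weights and −0.0653 with the block and no second replicate. When 1 array was left out it ranged from −0.0015 to 0.126 for *Cxcl1*, −0.0299 to 0.0549 for *Cybb*, −0.85 to 0.58 for *Fn1*, −0.0701 to 0.335 for *Gpx4*, −1.69 to 0.39 for *Nos2*, −0.19 to 0.11 for *Oas3*, −0.429 to 0.0628 for *Pdgfra*, −0.13 to 0.00155 for *Ptgs2*, −0.164 to 0.0968 for *Tgfb1*, −0.161 to 0.0721 for *Txnrd1* and −0.0228 to 0.134 for *Vcl*. Signals near the value for no signal, and those near the top of the scale, limit what the arrays can show.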
